A study of Caenorhabditis elegans with 13 samples.

Results

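The 3 genes described here, *C50F7.5*, *tag-293* and *F44G3.10*, were picked from the 46170 genes of the deposited expression table because their values in the *cec-4* mutant column stood far from those of the control. That choice used the measured values, so the size of each gene's difference between *cec-4* mutants and any other group is a description and was not tested. The table holds 1 mean FPKM (fragments per kilobase of gene, scaled to the mapped fragments of the library) for each of 4 groups, made from 13 mRNA-seq libraries of first-stage (L1) hermaphrodite larvae that had fed for 3 hours after hatching. The control was wild type (N2) on control vector RNAi (3 libraries). The second group was wild type labelled *dpy-27(RNAi)* (4 libraries), a partial depletion in the study's description. The *cec-4* mutants were strain RB2301, *cec-4(ok3124)*, and the double mutants strain EKM99, *met-2(n4256) set-25(n5021)*, each with vector RNAi and 3 libraries. The labels name *E. coli* OP50 as the food of all groups during these 3 hours. The study's methods give RNAi through other *E. coli* cells, and whether diet otherwise differed between libraries cannot be told from the labels. Each mutant group was 1 strain with 1 allele per gene, and RNA came from whole larvae, so more RNA per cell and more cells of a type cannot be told apart. With group means only, no spread between libraries stands beside any value, the read depth behind a value is unknown here, and no p-value was computed.

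CEC-4 is a chromodomain protein that binds histone H3 methylated at lysine 9 and holds such chromatin at the nuclear periphery. MET-2 and SET-25 are the methyltransferases that place this mark, and DPY-27 is a condensin-like subunit of the dosage compensation complex, which lowers expression from both X chromosomes of hermaphrodites. None of the 3 genes is X-linked. *F44G3.10* is named *clc-11*, a claudin-like gene, in the current annotation. Claudins are small membrane proteins of cell junctions, studied mainly in vertebrate epithelia. *tag-293* carries a temporarily assigned name and *C50F7.5* has a clone name alone, and no function is given for either here.

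The targeted genes were examined first. The mean of *cec-4* was 18.2 FPKM in the control, 14.5 FPKM in the group labelled *dpy-27(RNAi)*, 7.02 FPKM in *cec-4* mutants and 22.9 FPKM in *met-2 set-25* mutants, so it was lowest where it is mutated. *set-25* had 8.93 FPKM in the control and 4.15 FPKM in *met-2 set-25* mutants, and *met-2* had 17.7 FPKM and 13.7 FPKM in the same groups. *dpy-27* itself had 32.3 FPKM in the control and 31.6 FPKM in the group labelled *dpy-27(RNAi)*, so the mRNA level does not tell these groups apart. The study followed the depletion by the DPY-27 protein, which was not analysed here, and the group is named by its label throughout.

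*C50F7.5* (WBGene00016845) lies on chromosome IV of WBcel235 from 7726719 to 7727639, on the plus strand. It is annotated as a protein-coding gene of 1 exon with 921 exon bases that encodes 306 amino acids. Its mean was 12.1 FPKM in the control, 32.5 FPKM in *met-2 set-25* mutants, 58.0 FPKM in the group labelled *dpy-27(RNAi)* and 309 FPKM in *cec-4* mutants. The control was thus the lowest of the 4 groups and *cec-4* the highest, at 25.4 times the control. Among protein-coding genes above 1 FPKM in the same group, *C50F7.5* stood at percentile 40.7 of 12830 genes in the control and at percentile 97.1 of 13212 genes in *cec-4* mutants, a move from near the middle of the expressed genes to their top.

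*tag-293* (WBGene00015398, sequence name *C03G6.13*) lies on chromosome V from 7354435 to 7355564, on the minus strand, with 3 exons, 999 exon bases and a product of 250 amino acids. Its mean was 0.641 FPKM in the control, 2.23 FPKM in *met-2 set-25* mutants, 17.5 FPKM in *cec-4* mutants and 18.4 FPKM in the group labelled *dpy-27(RNAi)*. These last 2 means were 27.3 and 28.7 times the control. The gene was under 1 FPKM in the control and near the median of expressed protein-coding genes in both of the highest groups, at percentile 50.8 in *cec-4* and percentile 53.0 in the group labelled *dpy-27(RNAi)*. Such a level was therefore not particular to the *cec-4* column, for which it was chosen: the group labelled *dpy-27(RNAi)* was 1.05 times the *cec-4* group.

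*F44G3.10* (WBGene00009710) lies on chromosome V from 16138760 to 16139629, on the minus strand, with 4 exons, 585 exon bases and a product of 161 amino acids. Its mean was 64.1 FPKM in the control, 32.7 FPKM in the group labelled *dpy-27(RNAi)*, 23.3 FPKM in *met-2 set-25* mutants and 2.06 FPKM in *cec-4* mutants. Here the control was the highest of the 4 groups and *cec-4* the lowest, with the control at 31.1 times *cec-4*. The gene stood at percentile 84.5 of expressed protein-coding genes in the control and at percentile 9.60 in *cec-4* mutants.

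**Figure D1:**
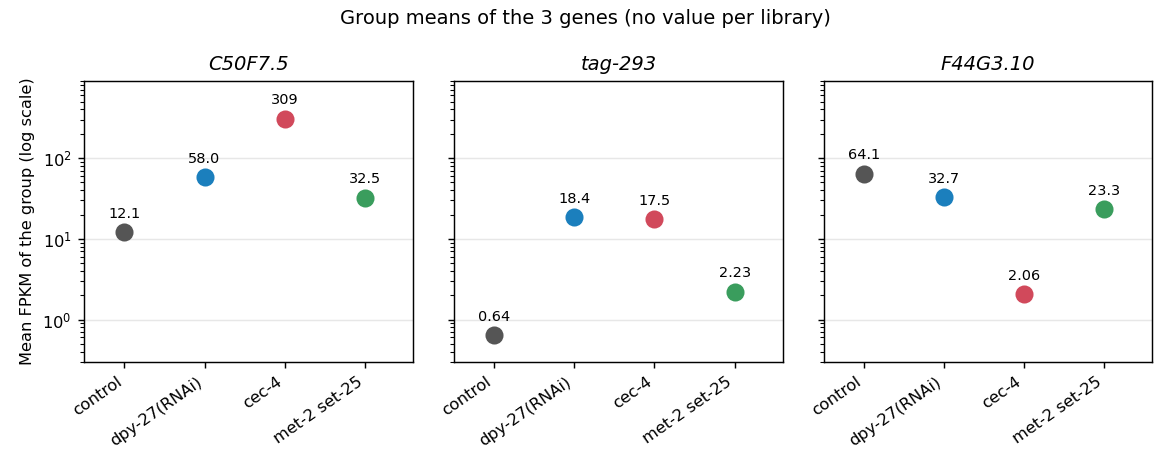
Mean FPKM of *C50F7.5*, *tag-293* and *F44G3.10* (log axis) in the 4 groups, 1 point per group and no error bar because the table holds means. The control sits lowest for *C50F7.5* (12.1) and *tag-293* (0.641) and highest for *F44G3.10* (64.1), and *tag-293* is as high in the group labelled dpy-27(RNAi) (18.4) as in cec-4 (17.5).

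For each gene the other 2 groups lay on the same side of the control as *cec-4*. This was also common among other genes. Over all genes, 841 of 1296 (64.9%) that were at least 2-fold higher in *cec-4* than in the control were also higher in both other groups, and 488 of 702 (69.5%) that were lower were lower in both. The shares were larger among protein-coding genes: of 580 protein-coding genes at least 2-fold higher in *cec-4* than in the control, 492 (84.8%) were also higher in both other groups, and of 305 at least 2-fold lower, 282 (92.5%) were lower in both. These counts compare log2(FPKM + 1) values of genes averaging above 1 FPKM over the 4 groups, and all 3 comparisons share the same control mean, so the common direction is no separate evidence for each group.

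Ratios to the control were taken as the log2 ratio of mean FPKM after adding 1 FPKM to both means, which understates the change of low genes, and genes were compared where the average of both groups exceeded 1 FPKM. For *cec-4* over control, the comparison that chose the genes, the log2 ratio was 4.56 for *C50F7.5*, 3.50 for *tag-293* and -4.41 for *F44G3.10*. Of all genes compared, 12.6% were at least 2-fold from the control in either direction, and 6.94% of protein-coding genes. The median ratio over all 16118 genes was 0.11, so the 3 ratios relative to that shift were 4.45, 3.38 and -4.52. Among 13098 protein-coding genes the percentile 1 of this ratio was -1.35 and the percentile 99 was 1.72. *C50F7.5* ranked 1 among the protein-coding genes by increase, *tag-293* ranked 9, and *F44G3.10* ranked 3 by decrease.

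The log2 ratio of the group labelled *dpy-27(RNAi)* to control was 2.16 for *C50F7.5*, 3.56 for *tag-293* and -0.95 for *F44G3.10*. *C50F7.5* and *tag-293* were thus past 2-fold, as were 8.28% of all genes and 3.2% of protein-coding genes in either direction, and *F44G3.10* lay just short of it. *tag-293* ranked 2 of 13005 protein-coding genes by increase here, above its rank of 9 in *cec-4*, and *C50F7.5* ranked 14. *F44G3.10* ranked only 197 by decrease.

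For *met-2 set-25* over control, the log2 ratio was 1.35 for *C50F7.5*, 0.98 for *tag-293* and -1.42 for *F44G3.10*. *C50F7.5* and *F44G3.10* were past 2-fold, against 15.3% of all genes and 8.86% of protein-coding genes, and *tag-293* lay just short of it on this scale. Its raw means differed 3.47 times, and with a pseudocount of 0.1 FPKM its log2 ratio was 1.65, so whether it is past 2-fold depends on the pseudocount. All 3 lay between the percentile 1 (-1.6) and the percentile 99 (2.16) of 13091 protein-coding genes. They ranked 344 and 672 by increase and 189 by decrease, so each lay toward the end of the distribution on its side, but many genes lay further out.

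**Figure D2:**
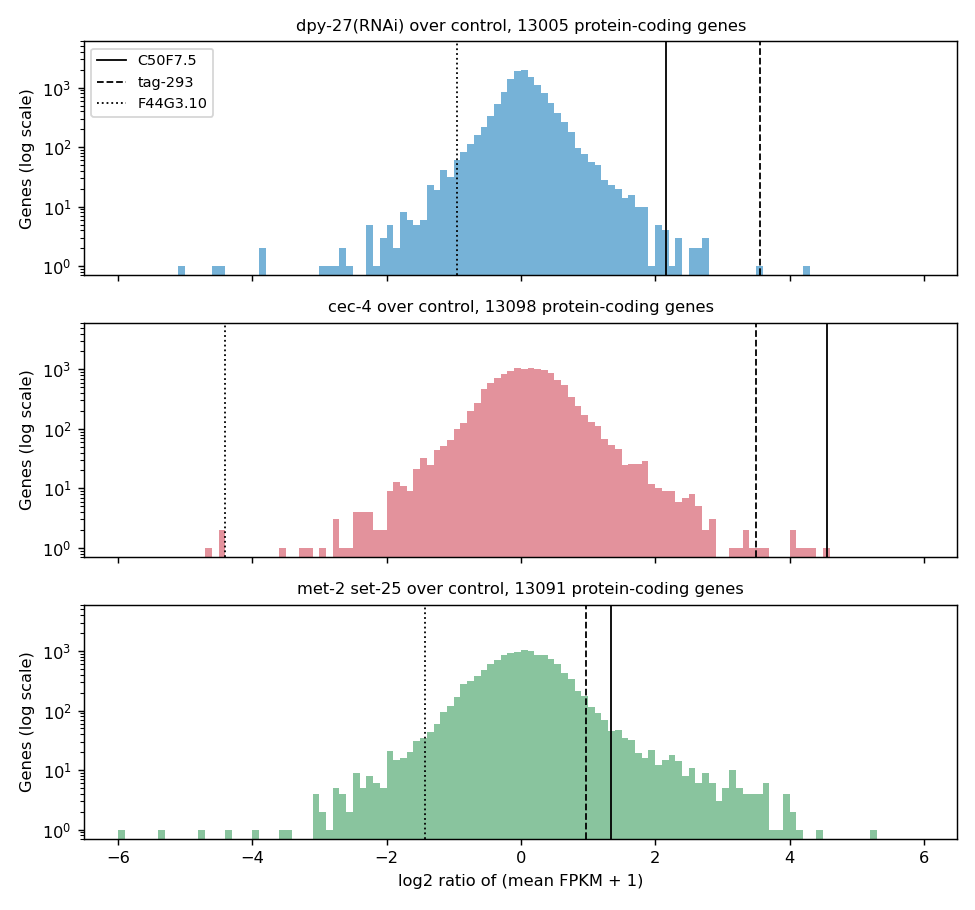
Number of protein-coding genes (log axis) by log2 ratio of (mean FPKM + 1) to control in each of the 3 comparisons, with the 3 genes as vertical lines. In cec-4 over control the lines at 4.56, 3.50 and -4.41 fall in the sparse ends, while in met-2 set-25 over control the lines at 1.35, 0.98 and -1.42 lie closer in, between its percentile 1 (-1.6) and percentile 99 (2.16).

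The *cec-4* group was then set against the other groups without the control. For *C50F7.5*, *cec-4* was 5.33 times the group labelled *dpy-27(RNAi)* and 9.52 times *met-2 set-25*, as ratios of mean FPKM. For *F44G3.10*, the group labelled *dpy-27(RNAi)* was 15.8 times *cec-4* and *met-2 set-25* was 11.3 times *cec-4*. On the log2(FPKM + 1) scale *F44G3.10* had the lowest ratio of *cec-4* over the group labelled *dpy-27(RNAi)* among 13195 protein-coding genes (-3.46), and *C50F7.5* ranked 9 by increase (2.40). For *tag-293* the same log2 ratio was -0.066, where the median over protein-coding genes was 0.05. In *cec-4*, *C50F7.5* and *F44G3.10* thus lay more than 2-fold from every other group. These ratios hold the same *cec-4* means for which the genes were chosen, so their sizes and ranks are descriptions only. Past 2-fold were 2.71% of protein-coding genes against the group labelled *dpy-27(RNAi)* and 6.81% against *met-2 set-25*. For *tag-293* the mean in *cec-4* was 7.87 times that in *met-2 set-25*.

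The rank of the genes depended on which genes they were ranked with. Among all 16118 genes, 31 had a higher *cec-4* ratio than *C50F7.5*, none of them protein-coding. All 31 had fewer than 150 exon bases and were listed at 0 in the control. Likewise 30 of the 32 genes below *F44G3.10* had fewer than 150 exon bases, and 29 of the 32 were listed at 0 in *cec-4* mutants. At a given depth a read adds more FPKM to a short gene than to a long one. The 3 genes had 585 to 999 exon bases, but the number of reads behind their values is unknown. Whether low read counts had a part in those values was not tested.

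**Figure D3:**
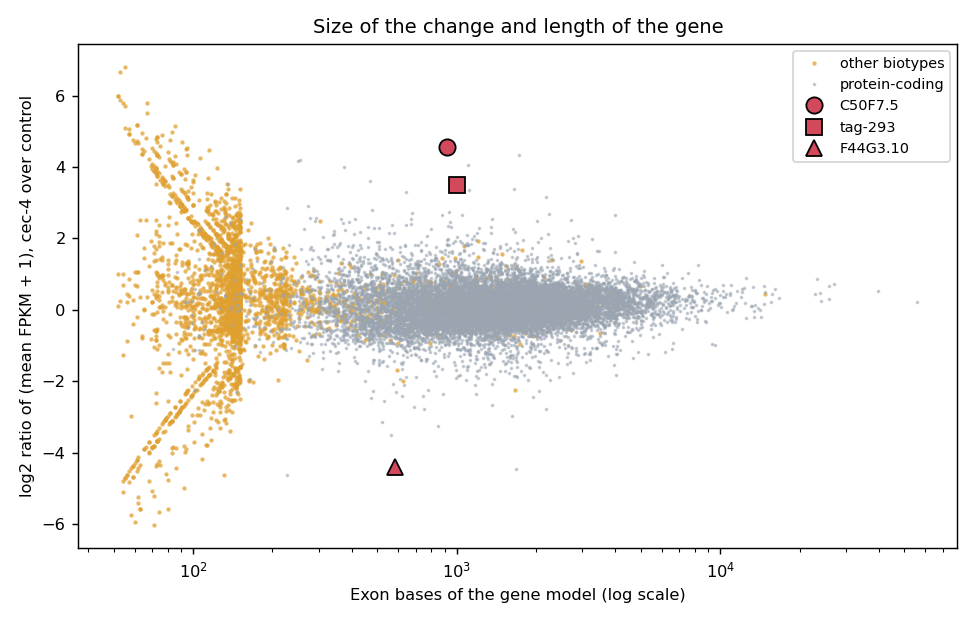
log2 ratio of (mean FPKM + 1), cec-4 over control, against exon bases of the gene model (log axis), for genes averaging above 1 FPKM over both groups. Genes under 150 exon bases, mostly of other biotypes (orange), spread widest, and the 3 genes stand apart from most protein-coding genes (grey) of their own length of 585 to 999 exon bases.

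The protein-coding genes next in rank show what lay just inside and outside. Below *C50F7.5* came *R07B7.12*, at 0.115 FPKM in the control, 0.112 FPKM in the group labelled *dpy-27(RNAi)*, 21.4 FPKM in *cec-4* and 8.63 FPKM in *met-2 set-25*. On either side of *tag-293* stood *F13E9.19* (log2 ratio 3.53, 135 exon bases, listed at 0 in the control) and *ech-9* (3.38), an enoyl-CoA hydratase gene. *ech-9* had 1.16 FPKM in the control, 5.67 FPKM in the group labelled *dpy-27(RNAi)*, 21.4 FPKM in *cec-4* and 2.63 FPKM in *met-2 set-25*. Beyond *F44G3.10* stood *acdh-1*, an acyl-CoA dehydrogenase gene whose expression is known to follow the vitamin B12 content of the bacterial food. *acdh-1* had 26.3 FPKM in the control and 0.153 FPKM, 0.252 FPKM and 0.333 FPKM in the group labelled *dpy-27(RNAi)*, *cec-4* and *met-2 set-25*, so all 3 groups differed from the control alike. Next inside was *pud-4*, with 488 FPKM in the control against 20.7 FPKM, 42.0 FPKM and 6.97 FPKM in the same order. The labels name the same food for every group during the 3 hours of feeding. Whether diet otherwise differed between libraries cannot be told from them, and the part of food in the members' values was not tested.

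Genes that share a clone name with a member, and so lie beside it, were examined next; the choice of members did not use them. Clone C50F7 holds 10 other genes, clone C03G6 holds 19 and clone F44G3 holds 16. Of these 45 genes, 6 were at 0 FPKM in all groups and 20 averaged above 1 FPKM in *cec-4* and control. In *cec-4*, 4 of the 20 (20%) were at least 2-fold higher (*clx-1*, *srj-14*, *fbxa-143* and *F44G3.2*) and 0 were 2-fold lower, where 8.36% of all genes and 4.57% of protein-coding genes were higher. The 4 genes were low. *clx-1*, at 0.375 FPKM in the control and 2.70 FPKM in *cec-4*, passed the filter only through the group where it was high. The count past 2-fold was 0 with a pseudocount of 5 FPKM and 1 among genes averaging above 5 FPKM. In the group labelled *dpy-27(RNAi)* 2 of 19 were 2-fold higher, *F44G3.2* and the non-coding RNA gene *F44G3.18*, where 4.94% of all genes were. *F44G3.18*, with 111 exon bases, was listed at 2.25 FPKM in this group and at 0 in the others. It thus passed the filter only through the group where it was high. Among protein-coding neighbours 1 of 17 was higher in this group, as were 250 of all 13005 protein-coding genes. In *met-2 set-25* 1 of 17 was 2-fold higher (5.88%), *F44G3.2*, where 9.16% of all genes and 4.92% of protein-coding genes were. Of the 17, 16 were protein-coding. The median log2 ratio of the clone neighbours was 0.25 in *cec-4*, where that of all genes was 0.11.

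The genes on both sides of *C50F7.5* had similar means in all 4 groups. *sucg-1*, which encodes a succinyl-CoA ligase subunit of the mitochondrial citric acid cycle, begins 1273 bases to the right on the same strand. It had 23.9 FPKM in the control, 26.1 FPKM in the group labelled *dpy-27(RNAi)*, 18.4 FPKM in *cec-4* and 20.2 FPKM in *met-2 set-25*. *C50F7.6*, 3519 bases to the left on the other strand, had 6.45 FPKM, 6.68 FPKM, 6.02 FPKM and 8.97 FPKM in the same order. Further to the right, *clx-1* had 0.375 FPKM in the control and 2.70 FPKM in *cec-4* (log2 ratio 1.43), and the cuticle collagen gene *col-14* had 6.99 FPKM and 27.3 FPKM (1.82). These were the 2 genes past 2-fold in *cec-4* among the 5 nearest genes above 1 FPKM on each side. In *met-2 set-25* the gene past 2-fold was *emc-6*, for a subunit of a membrane protein complex of the endoplasmic reticulum, which was lower at -1.02. *emc-6* overlaps *mrpl-1* on the same strand over most of its length, so its value is uncertain. Over the nearest genes of all 3 members, 4 of 30 were at least 2-fold higher in *cec-4* and 2 were lower. Of the 4 higher genes, *clx-1*, *srj-14* and *fbxa-143* were already counted among the clone neighbours. Among protein-coding genes 4.57% were higher and 2.37% lower. These shares use the average of *cec-4* and control as filter, whereas the 30 genes were kept by the mean of the 4 groups.

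*C50F7.5* lies on the same chromosome as *cec-4* itself, which occupies 7575718 to 7577326, with 149 kb between the genes. Of 45 genes in that stretch, 27 averaged above 1 FPKM in *cec-4* and control, with a median log2 ratio of 0.07. Where 8.36% of all genes and 4.57% of protein-coding genes were at least 2-fold higher, 2 of these 27 were (7.41%), both protein-coding. One of them was *F45E4.5*, with 11.4 FPKM in the control, 24.6 FPKM in the group labelled *dpy-27(RNAi)*, 54.3 FPKM in *cec-4* and 16.4 FPKM in *met-2 set-25*. The other was *arf-1.1*, an ADP-ribosylation factor-like GTPase gene, with 3.12 FPKM, 11.1 FPKM, 9.64 FPKM and 5.19 FPKM in the same order. The median for the stretch was thus near that of all genes, while *C50F7.5* at its edge stood at 4.56 and *F45E4.5* within it at 2.16. Both lay past the percentile 99 of protein-coding genes (1.72).

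Both genes directly beside *tag-293* were low in every group. On its left, 180 bases away on the other strand, the chemoreceptor gene *srh-275* ran from 0.215 to 0.432 FPKM over the 4 groups. On its right, 459 bases away on the same strand, *C03G6.21* was at most 0.218 FPKM. Of the 10 nearest genes above 1 FPKM, *srj-14*, another chemoreceptor gene, was past 2-fold, with 1.77 FPKM in the control and 5.12 FPKM in *cec-4* (log2 ratio 1.14). None of the 10 was past 2-fold in the group labelled *dpy-27(RNAi)*, where *tag-293* was highest. The nuclear hormone receptor genes *nhr-147*, *nhr-148* and *nhr-149*, left of *tag-293*, had log2 ratios of at most 0.41 in *cec-4* (*nhr-147* and *nhr-149* overlap on opposite strands, so their values are uncertain), and the cytochrome P450 gene *cyp-35A2*, right of it, had 17.4 FPKM in the control and 16.3 FPKM in *cec-4*.

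*F44G3.10* had mostly lower neighbours on its right and mostly higher ones on its left in *cec-4*. On its right, 683 bases away on the same strand, lies *F10A3.1*, named *clc-32* in the current annotation and thus another claudin-like gene. *F10A3.1* had 3.76 FPKM in the control, 3.44 FPKM in the group labelled *dpy-27(RNAi)*, 3.48 FPKM in *met-2 set-25* and 0.769 FPKM in *cec-4*, so the first 3 means lay close together and that of *cec-4* far below them (log2 ratio -1.43). *F10A3.4*, the fourth expressed gene to the right, had 88.3 FPKM in the control, 41.3 FPKM in the group labelled *dpy-27(RNAi)*, 29.3 FPKM in *cec-4* and 38.3 FPKM in *met-2 set-25*. Left of the member lies a row of F-box A genes, a nematode family whose products can act as adaptors of ubiquitin ligases, and these were higher in *cec-4*. *fbxa-143* had 4.12 FPKM in the control and 9.78 FPKM in *cec-4* (log2 ratio 1.08), while *fbxa-144* (0.91), *fbxa-142* (0.81) and the pseudogene *fbxa-87* (0.51) did not reach 2-fold. The F-box A genes right of it, *fbxa-88* (-0.36) and *fbxa-18* (-0.56), were lower. *fbxa-142* overlaps *fbxa-144* over a short stretch of the same strand, and *fbxa-88* overlaps *fbxa-18* on the other strand, so reads from the shared stretches could be counted for either gene and these values are uncertain. *skr-3*, which encodes a relative of the ubiquitin ligase subunit Skp1, had 185 FPKM in the control and 206 FPKM in *cec-4*. *F44G3.2*, on the same clone and named *argk-1* (arginine kinase) in the current annotation, had 2.58 FPKM in the control and 7.42, 6.49 and 8.38 FPKM in the group labelled *dpy-27(RNAi)*, *cec-4* and *met-2 set-25*. Next to *F44G3.10*, the pseudogene *F44G3.16* was listed at 0 in the control and at 1.13 FPKM in *cec-4*.

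**Figure D4:**
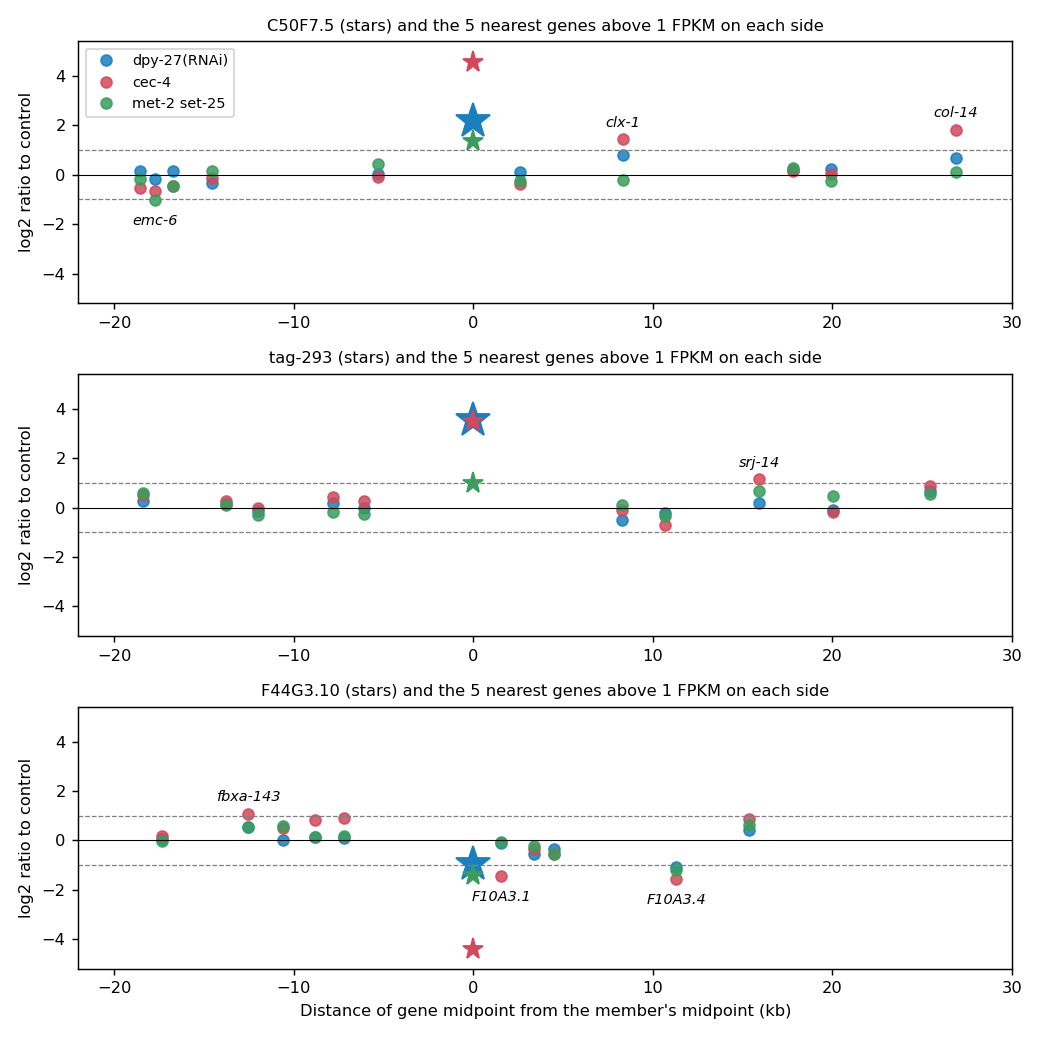
log2 ratio of (mean FPKM + 1) to control for each member (stars) and the 5 nearest genes above 1 FPKM on each side (circles), against distance between gene midpoints in kb, with dashed lines at 2-fold. In cec-4 (red) most neighbours stay within the dashed lines, *clx-1* (1.43), *col-14* (1.82), *srj-14* (1.14) and *fbxa-143* (1.08) lie above, and *F10A3.1* (-1.43) and *F10A3.4* (-1.56) lie below.

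Since *F44G3.10* and its neighbour are both claudin-like, all 30 genes with a current clc name in the table were listed; this list was made after their names were seen and was not tested. Of the 21 others that averaged above 1 FPKM in *cec-4* and control, 4 were at least 2-fold lower and 0 were higher, where 2.37% of protein-coding genes were lower. A ratio below 0 was found for 15 of the 21, and for 42.8% of protein-coding genes. The 4 were *F49H6.3* (*clc-13*, log2 ratio -1.55), *F10A3.1* (-1.43), *F59C6.11* (*clc-14*, -1.05) and *Y67A10A.9* (*clc-8*, -1.04). Their ratios were well short of the -4.41 of *F44G3.10*. *F49H6.3* had 7.01 FPKM in the control, 2.09 FPKM in the group labelled *dpy-27(RNAi)*, 1.73 FPKM in *cec-4* and 6.35 FPKM in *met-2 set-25*, and was the only one of the family past 2-fold lower in the group labelled *dpy-27(RNAi)*, as were 1.28% of protein-coding genes. Besides *F44G3.10*, the member of the family past 2-fold in *met-2 set-25* was *F49H6.13* (*clc-12*), which was higher at 1.12, as were 4.92% of protein-coding genes past 2-fold. *F59C6.11* had 24.4 FPKM in the control and 12.4, 11.3 and 13.3 FPKM in the group labelled *dpy-27(RNAi)*, *cec-4* and *met-2 set-25*, so the *cec-4* value was close to those of the other groups. The same held for *Y67A10A.9*, with 41.9 FPKM in the control and 22.8, 19.8 and 24.2 FPKM in that order. Of the 4, only *F10A3.1* had a *cec-4* mean far below those of all other groups. The median log2 ratio of the family besides *F44G3.10* was -0.39 in *cec-4*, -0.39 in the group labelled *dpy-27(RNAi)* (20 genes) and -0.36 in *met-2 set-25* (21 genes), with protein-coding medians of 0.09, 0.04 and 0.03. Among them *clc-1*, on the X chromosome, had 101 FPKM in the control against 50.5, 63.0 and 71.8 FPKM in the same order as above. Reads that fit several of these related genes could be shared between them in the authors' counting, which was not examined here.

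**Figure D5:**
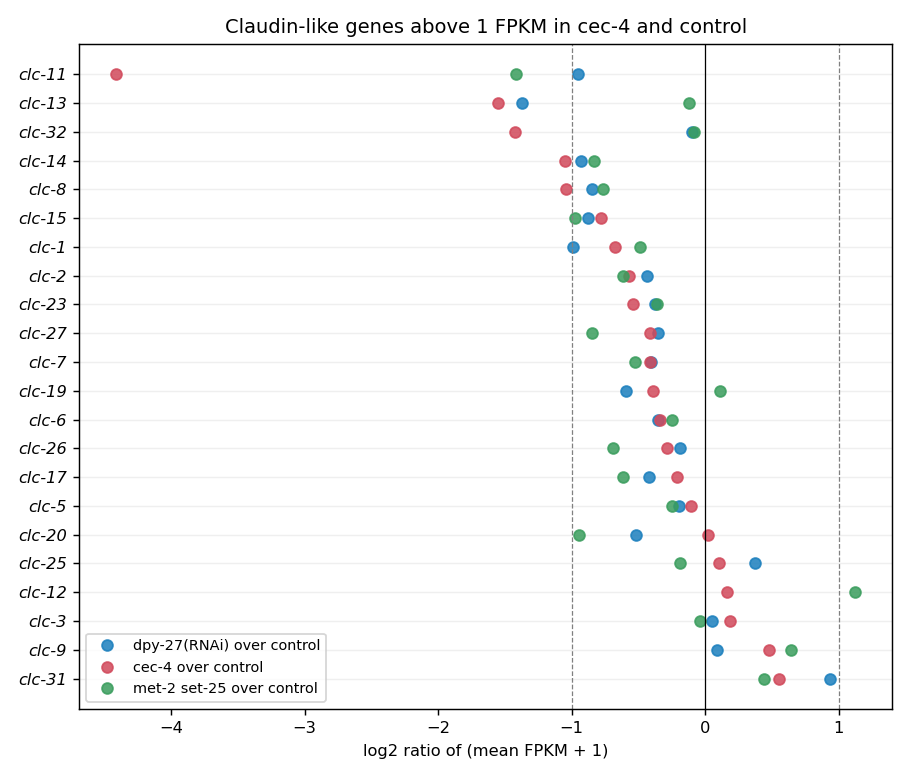
log2 ratio of (mean FPKM + 1) to control for the 22 claudin-like genes averaging above 1 FPKM in cec-4 and control, 1 row per gene by current name (a point is left out where that pair of groups averaged lower), with dashed lines at 2-fold. *clc-11* (*F44G3.10*) stands alone at -4.41 in cec-4 (red), and the points of most other genes lie left of 0 in all 3 comparisons.

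The genes whose profile was most like each member were found by Euclidean distance over the 4 values of log2(FPKM + 1), each gene centred on its own mean, among 13816 protein-coding genes above 1 FPKM in at least 1 group. With 4 points and a shared control this is a description of likeness only. *C50F7.5* was nearest to *C12D8.21* (distance 0.47), *Y60C6A.2* (0.74) and *ech-9* (0.84). *C12D8.21* had 2.09 FPKM in the control, 11.4 FPKM in the group labelled *dpy-27(RNAi)*, 54.7 FPKM in *cec-4* and 4.09 FPKM in *met-2 set-25*, the same order of groups as *C50F7.5*. *tag-293* was nearest to *hsp-16.11* (0.75), *C08E8.3* (0.79) and *F13E9.19* (0.93). *hsp-16.11* encodes a small heat shock protein of a family with near-identical gene copies, among which the authors' counting could split reads. It had 4.32 FPKM in the control, 31.8 FPKM in the group labelled *dpy-27(RNAi)*, 36.2 FPKM in *cec-4* and 4.58 FPKM in *met-2 set-25*. *C08E8.3* had 5.36, 41.4, 33.4 and 7.03 FPKM in the same order and was, like *tag-293*, highest in the group labelled *dpy-27(RNAi)*. *F44G3.10* had no protein-coding gene as close: *C03D6.9* (1.05), with 228 exon bases and listed at 0 in *cec-4*, was followed by *Y67H2A.10* (1.6) and *Y53G8AM.5* (1.64). Over all 18221 genes with a value above 1 FPKM, the 3 nearest to *C50F7.5* were the same genes, while those nearest to *tag-293* and *F44G3.10* were non-coding RNA genes of 80 to 117 exon bases, such as *C26C6.14* (0.69) and *C43F9.15* (0.62).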

How the data were processed

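Reads of non-stranded poly(A) mRNA libraries (single end) were trimmed by the authors with Trim Galore, aligned to WS235 with TopHat2 2.0.13, and quantified with Cufflinks 2.2.1. The authors deposited the mean FPKM of each group. A second deposited table holds the authors' own comparisons, log2 fold changes and adjusted p-values from HTSeq 0.6.0 counts by DESeq2 1.6.3 in R 3.2.3, and was not used.

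Group means were compared as log2 ratios after adding 1 FPKM, for genes averaging above 1 FPKM over both groups, with 2-fold as the size named. No value per library was used, so there is no test, interval or depth. WS235 is the source of assembly WBcel235, and genes were placed with its Ensembl release 115 annotation; 45871 of 46170 IDs were found and 299 were not. No gene overlaps a member on either strand in that annotation. Named genes are the members, neighbours by clone or position that are adjacent or past 2-fold, targeted genes, genes next in rank and the 3 most similar profiles; others in the text were chosen after their values were seen. Members and lists were chosen with earlier results of these data known. Searches of protein and promoter sequence, listed in the design, were not run. The ratio code was run on simulated means with large set changes in well-expressed genes and little noise. That run says nothing about low genes or about spread between libraries. Python 3.11.15, numpy 2.4.6, pandas 2.3.3 and matplotlib 3.10.9 were used. Alternatives were a pseudocount of 0.1 or 5 FPKM, no filter or 5 FPKM, centring on the median, other reference groups, and neighbours within 50 kb; protein-coding genes only, the stretch next to *cec-4* and the claudin-like list were added after seeing the data.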

Additional observations from a re-analysis of the deposited data

How the results depend on the processing

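Of 36 alternative ratios of the 3 genes to a reference, 20 moved by less than 1.5 times, 15 moved further and 1 changed sign. The sign changed for *tag-293* in *cec-4* with the group labelled *dpy-27(RNAi)* as reference (-0.066). With *met-2 set-25* as reference the *cec-4* log2 ratio was 3.21 for *C50F7.5*, 2.52 for *tag-293* and -2.99 for *F44G3.10*. With the mean of the 3 other groups it was 3.14, 1.20 and -3.74, and with the group labelled *dpy-27(RNAi)* it was 2.40 for *C50F7.5* and -3.46 for *F44G3.10*. Because *tag-293* was under 1 FPKM in the control, a pseudocount of 0.1 FPKM gave 4.57 in *cec-4*, 4.64 in the group labelled *dpy-27(RNAi)* and 1.65 in the double mutants, and one of 5 FPKM gave 2.0, 2.05 and 0.36. A pseudocount of 5 FPKM gave -3.29 for *F44G3.10* in *cec-4*. Genes past 2-fold numbered 2031 in *cec-4*, 1320 in the group labelled *dpy-27(RNAi)* and 2467 in the double mutants. These counts rest on group means without spread and are not calls of changed genes. The study's own analysis with replicates found very few significant genes in the first 2 of these groups and more in the double mutants. In the same order, genes past 2-fold numbered 1116, 608 and 1389 above 5 FPKM, 914, 530 and 1162 with a pseudocount of 5 FPKM, and 909, 416 and 1160 among protein-coding genes. Clone neighbours past 2-fold numbered 4 of 20, 2 of 19 and 1 of 17 compared. Among all genes within 50 kb of a member, a larger set, 11 of 54, 7 of 50 and 6 of 47 were past 2-fold. The shares of all genes were 12.6%, 8.28% and 15.3%, and those of protein-coding genes 6.94%, 3.2% and 8.86%. With a pseudocount of 5 FPKM the clone neighbours past 2-fold numbered 0, 0 and 0. Above 5 FPKM they numbered 1 in *cec-4* and 0 in the group labelled *dpy-27(RNAi)*, and among protein-coding genes 1 in the latter. Part of these shifts follows from how many genes each setting keeps; no other cause was tested. No paired analysis was possible because the table holds group means without replicate columns, and for the same reason no replicate could be left out.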

Other observations

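Between *C50F7.5* and *tag-293* in the ranking of *cec-4* over control stood 7 further protein-coding genes, which are given here as values only and were not chosen by name. *T24B8.5*, widely used as a reporter of the p38 MAP kinase immune pathway, had 3.76 FPKM in the control, 11.3 FPKM in the group labelled *dpy-27(RNAi)*, 57.0 FPKM in *cec-4* and 3.41 FPKM in *met-2 set-25*. *F55G11.4* had 4.18, 8.19, 85.8 and 3.49 FPKM in the same order. Both had *cec-4* means far above those of the other groups, as did *C50F7.5*. Their *met-2 set-25* means lay just below the control, unlike that of *C50F7.5*. *Y60C6A.2* had 0.837, 8.26, 28.6 and 5.48 FPKM. *C08H9.18*, with 254 exon bases, was listed at 0 in the control and in *met-2 set-25*, at 17.8 FPKM in the group labelled *dpy-27(RNAi)* and at 17.4 FPKM in *cec-4*, the grouping seen for *tag-293*.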
